A study of Mus musculus with 36 samples.

Results

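The miR-379 to miR-410 cluster is a run of 37 microRNA (miRNA) hairpins at the distal end of the imprinted Dlk1-Dio3 domain of the mouse. Its members were taken by name: every mature miRNA in the deposited count table whose precursor is one of these 37 hairpins, which gave 73 mature miRNAs of 1966 in the table. A mature miRNA is the strand of about 22 bases, named 5p or 3p after the hairpin arm it comes from, that guides repression of target mRNAs. The libraries are small RNA sequencing of liver and of epididymal white adipose tissue (eWAT, the fat pad attached to the epididymis) from C57BL/6 wild-type males of the F1 generation, aged 24 weeks. Chow was given until week 6 and a defined diet over the following 18 weeks. Each tissue held groups with the diet tags LFD, HFD and HFLFD, here LF, HF and HFLF, with 6 libraries each and 36 in all. The treatment protocol names LFD for every sample, so the tags serve here only as group names: the labels leave unclear who ate which diet. The columns of the count table abbreviate tissue and group by a letter each, and the letters C, H and R were read as LF, HF and HFLF from the abbreviation alone. No label says that replicates are separate mice, so the p-values reflect only the variation among these libraries, which may be technical.

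The Dlk1-Dio3 domain carries protein-coding genes expressed from the paternal chromosome and long noncoding RNAs expressed from the maternal chromosome, among them Meg3, Rian and Mirg. The distal miRNAs are processed from the maternal transcripts that run through Rian and Mirg. They are known for high levels in the embryo, the placenta and the brain, and for low levels in most adult tissues. A miRNA recognises its targets mainly by the seed, bases 2 to 8 counted from its 5′ end, so 2 miRNAs with the same seed share predicted targets.

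In the GRCm38.p6 build the 37 hairpins lie on chromosome 12 from 109709060 to 109743795, a span of 34736 bp. All but Mir299b are on the plus strand, and Mir299b is annotated on the minus strand opposite Mir299a. The first 24 hairpins have no annotated host gene. The last 13 lie in the lincRNA Mirg (109729764 to 109749460), 8 in an exon and 5 in an intron. Upstream on the same strand are the lincRNA Meg3 (109541001 to 109571726) and the noncoding transcript Rian (109603940 to 109661716), and Rtl1, a retrotransposon-derived protein-coding gene, lies on the opposite strand (109589193 to 109600330).

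Sequences from RefSeq (GRCm38.p6) matched 69 of the 73 members by name, from 18 to 25 bases long. The most abundant members with a sequence are shown first, because they carry most of the signal described below. Capitals mark the seed.
miR-379-5p: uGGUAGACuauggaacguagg
miR-541-5p: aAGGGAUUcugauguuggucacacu
miR-411-5p: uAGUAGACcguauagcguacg
miR-382-5p: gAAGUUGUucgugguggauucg
miR-369-3p: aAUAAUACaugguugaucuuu
miR-409-3p: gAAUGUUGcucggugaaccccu
miR-411-3p: uAUGUAACacgguccacuaacc
miR-543-3p: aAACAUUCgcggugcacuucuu
miR-382-3p: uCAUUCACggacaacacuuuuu
miR-379-3p: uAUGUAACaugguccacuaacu
miR-485-3p: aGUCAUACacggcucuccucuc
The neighbouring hairpins mir-379 and mir-411 show how alike the members can be. Their 3p arms have the same seed, and their 5p seeds differ by the single substitution G2A (miR-379-5p base, position from the 5′ end, miR-411-5p base).

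A total of 7 pairs of members had the same seed. Besides miR-379-3p with miR-411-3p they were miR-379-5p with miR-1193-5p, miR-299a-3p with miR-299b-3p, miR-376c-5p with miR-376b-5p, miR-1197-5p with miR-758-5p, miR-453 with miR-496a-5p, and miR-494-5p with miR-410-5p. In eWAT miR-376b-5p averaged 4.34 CPM and miR-376c-5p 0.0393 CPM (the scaled read level explained below), the latter with no count in 15 of 18 libraries, and the pair is shown for the near identity of its sequences.
miR-376b-5p: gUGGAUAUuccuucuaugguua
miR-376c-5p: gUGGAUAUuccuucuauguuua
miR-1193-5p: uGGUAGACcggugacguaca
miR-299a-3p: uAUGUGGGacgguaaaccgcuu
miR-299b-3p: uAUGUGGGacgguaaacc
Such pairs, and the antisense pair mir-299a and mir-299b in particular, may have shared reads, since no source used here gives the alignment settings. Some members share a seed with a miRNA from elsewhere in the genome: miR-329-3p with miR-362-3p, miR-410-3p with miR-344d-3p and miR-344e-3p, and miR-495-3p with miR-1192 and miR-12200-5p.

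Short runs of bases recurred among the members. The run GGUCCAC occurred in 5 of the 69 member sequences and in 0 of the 1610 other mature sequences searched, or 0.298% of all 1679. The run GGUUGACC likewise occurred in 5 members and in 0 of the others. Another run, GCACUUCUU, occurred at the 3′ end of miR-543-3p and miR-495-3p and in 1 of the others. All 3 were searched on the mature strand only and picked after the sequences had been read, so the counts describe the family. The sequences with the first 2 runs are printed here, with the run in capitals, because its place relative to the seed differs between members. GGUCCAC lies at bases 11 to 17, past the seed, in 4 of its members and at bases 8 to 14 in miR-412-3p, where it starts on the last base of the seed. GGUUGACC overlaps the seed in 4 of its 5 members: it lies at bases 2 to 9 in miR-1197-5p and miR-758-5p, 3 to 10 in miR-380-5p and 8 to 15 in miR-134-5p, and it lies past the seed, at bases 11 to 18, in miR-154-3p.
miR-379-3p: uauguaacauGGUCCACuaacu
miR-411-3p: uauguaacacGGUCCACuaacc
miR-380-3p: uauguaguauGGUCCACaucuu
miR-758-3p: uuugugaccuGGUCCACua
miR-412-3p: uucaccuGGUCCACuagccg
miR-380-5p: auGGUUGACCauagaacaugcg
miR-1197-5p: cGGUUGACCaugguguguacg
miR-758-5p: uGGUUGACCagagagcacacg
miR-134-5p: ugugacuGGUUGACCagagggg
miR-154-3p: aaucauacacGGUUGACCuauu

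Total counts per library were 7866583 to 18832842 and overlapped between the tissues. Levels are CPM, the read count relative to the library total, after TMM scaling over all 36 libraries, a scaling that sets most miRNAs level between libraries. The scaling factors were 0.575 to 0.807 in liver and 1.37 to 1.68 in eWAT. A count of 3, the limit that a count of 0 allows, corresponded to 0.228 to 0.650 CPM in a liver library and 0.117 to 0.215 CPM in an eWAT library. Such limits cover counting error only, since duplicates from PCR may be counted as reads. LF replicate 4 and HF replicate 6 of liver stood apart: they held counts for 4 and 5 members, against 16 to 31 in the other 16 liver libraries, and they are missing from the liver log2 table that the authors deposited. In LF replicate 4 these were miR-379-5p, miR-543-3p, miR-409-3p and miR-369-3p, with 41 to 63 counts each. In HF replicate 6 they were both arms of mir-379, both arms of mir-382 and miR-541-5p, with 27 to 393 counts each, in the library with the highest total of all. Liver results are therefore also given without this pair.

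Of the 73 members, 66 had a count in some library. The 7 without any were miR-1197-5p, miR-453, miR-494-5p, miR-539-3p, miR-654-5p, miR-654-3p and miR-758-5p. In eWAT 44 to 53 members were counted per library, and 36 had a count in all 18 libraries. In liver 27 members had no count in any library, and 1, miR-379-5p, had a count in all 18. Leaving out LF replicate 4 and HF replicate 6, 9 members had a count in every liver library: miR-379-5p, both arms of mir-411, miR-543-3p, miR-382-5p, miR-485-3p, miR-541-5p, miR-409-3p and miR-369-3p. Of the 27 members without a count in liver, 20 were counted in eWAT, and 46 members were counted in both tissues.

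The cluster was a small but steady part of the eWAT libraries and a trace in liver. Its summed level was 770.4 to 1410.2 CPM in eWAT (1092 ± 191, SD, n = 18) and 39.8 to 252 CPM in liver (93.4 ± 61.8, SD, n = 18). In raw terms it made up 0.113% to 0.216% of the counts of an eWAT library (11318 to 33038 counts) and 0.00253% to 0.0159% of a liver library (215 to 2110 counts). In eWAT LF the lowest, median and highest library held 770.4, 998 and 1344 CPM, in HF 855, 1190.0 and 1410.2, and in HFLF 823, 1149.6 and 1263. In liver LF they held 44.0, 105 and 252 CPM, in HF 51.5, 63.4 and 104, and in HFLF 39.8, 55.4 and 132. The ranges of the 3 groups overlapped within each tissue, and no liver library reached the lowest eWAT library. In bulk tissue, fewer cells of a type and less of a miRNA per cell cannot be told apart.

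**Figure D1:**
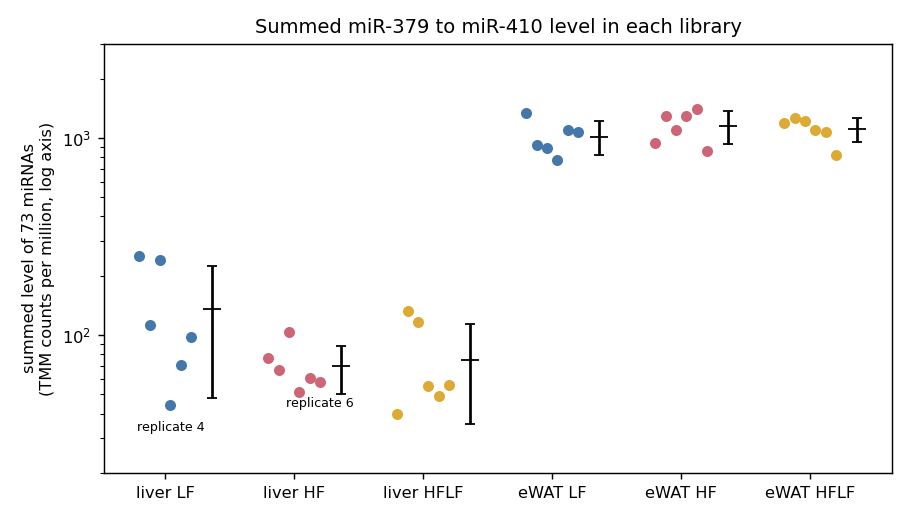
Summed level of the 73 cluster miRNAs in each library (TMM-scaled CPM, log axis) by tissue and diet group. Points are libraries, and the black marks give the mean ± SD of the 6 libraries beside them; the labelled replicates are the 2 liver libraries with counts for 4 and 5 members. All 18 eWAT libraries lie at or above 770.4 CPM and all 18 liver libraries at or below 252 CPM, and the 3 groups of a tissue overlap.

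A few members made up most of the cluster. In eWAT miR-379-5p, reported elsewhere to act on hepatic lipid handling, led with 340.2 ± 71.6 CPM (SD, n = 18, as for the values that follow), or 31.2% of the cluster. Next came miR-541-5p with 179 ± 37.7 CPM and miR-411-5p with 128 ± 27.3 CPM. These 3 members held 59.3% of the summed level in eWAT and 51.5% in liver. The level then dropped to 60.8 ± 12.4 CPM for miR-382-5p, 49.4 ± 8.35 CPM for miR-369-3p and 39.9 ± 9.35 CPM for miR-409-3p. Below these came miR-411-3p (37.9 ± 8.88 CPM), miR-543-3p (28.0 ± 7.0), miR-382-3p (21.1 ± 5.09), miR-379-3p (19.7 ± 3.57), miR-485-3p (18.8 ± 4.03) and miR-376c-3p (13.9 ± 3.52). The neighbours miR-409-3p and miR-411-3p, and likewise miR-382-3p, miR-379-3p and miR-485-3p, differed by less than their SDs. The highest 12 held 85.8% of the cluster, and the other 54 members that were counted shared the rest. The well-studied neuronal miRNA miR-134-5p, which controls dendritic spine size, was at 9.62 ± 2.77 CPM.

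Liver kept nearly the same order at a lower level. Its highest 6 were miR-379-5p (20.8 CPM), miR-541-5p (18.7), miR-411-5p (8.59), miR-409-3p (6.04), miR-382-5p (5.15) and miR-369-3p (4.05), the same 6 as in eWAT. Over the 46 members counted in both tissues, the rank correlation of mean levels was 0.894, a description over members that share the same libraries and depth. In liver LF the lowest, median and highest library held 8.39, 22.1 and 70.1 CPM of miR-379-5p, and in eWAT LF 246, 288 and 452. The libraries of LF liver thus spread over a wider fold range than those of eWAT for this member. The second member, miR-541-5p, gave 0, 20.6 and 49.2 CPM in LF liver, where the 0 is LF replicate 4, and 102.8, 156 and 216 CPM in LF eWAT. For miR-411-5p the LF values were 0, 11.2 and 26.4 CPM in liver and 68.9, 117 and 159 in eWAT.

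**Figure D2:**
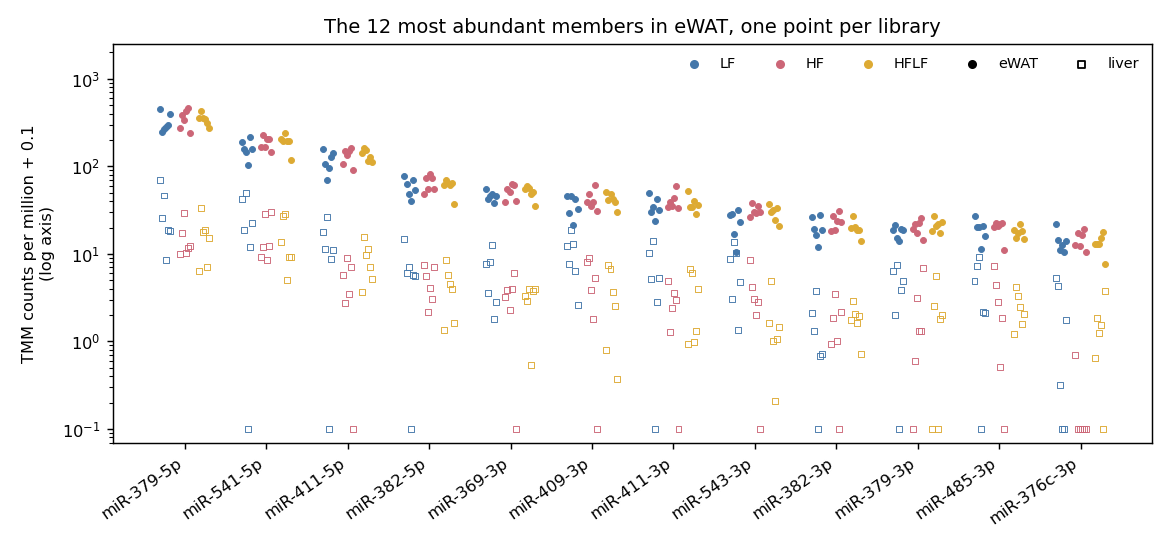
Level of the 12 most abundant members in every library (TMM-scaled CPM plus 0.1, log axis). Filled circles are eWAT, open squares are liver, and colours are the diet groups; libraries without a count sit at 0.1. For miR-379-5p the eWAT libraries lie at 239 to 459.7 CPM and the liver libraries at 6.20 to 70.1 CPM, and the colours intermingle within each tissue.

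Levels did not follow the order of the hairpins. With both arms summed, the first 2 hairpins were among the highest in eWAT, mir-379 at 359.9 ± 73.7 CPM and mir-411, 1.1 kb downstream, at 166 ± 33.0 CPM. The next hairpin, mir-299a at 1.6 kb, held 11.7 CPM, and mir-299b on the opposite strand 0.181 CPM. Between 2.7 and 19.1 kb 6 hairpins passed 10 CPM: mir-543 (28.1 CPM at 8.2 kb), mir-329 (15.3), mir-376c (14.0), mir-495 (11.5), mir-487b (10.9) and mir-300 (10.2). Inside Mirg mir-382 (81.8 CPM at 24.7 kb) and mir-541 (179.8 CPM at 33.3 kb) stood out. Neighbours at the end of the cluster differed widely: mir-409 at 34.1 kb held 46.7 CPM, mir-412 at 34.2 kb held 0.829 CPM, and mir-369 at 34.4 kb held 52.7 CPM. Of the 37 hairpins 14 were above 10 CPM in eWAT and 9 under 1 CPM, with mir-654 and mir-453 at 0 in all eWAT libraries, and 7 were at 0 in all liver libraries. The hairpins without a host gave 61.3% of the cluster in eWAT and those in Mirg 38.7%.

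**Figure D3:**
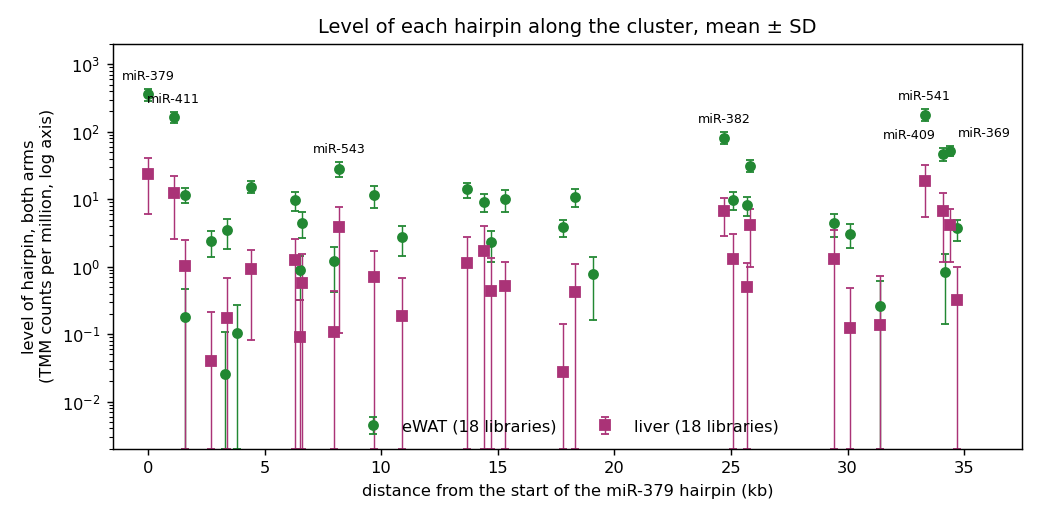
Mean level of each hairpin, both arms summed (TMM-scaled CPM, log axis), against the distance from the start of the miR-379 hairpin in kb. Error bars are SDs over 18 libraries and are drawn only down to the axis limit; hairpins at 0 in a tissue are not drawn. Hairpins mir-379 and mir-411 at the left and mir-541, mir-409 and mir-369 at the right are the high ends, and mir-412 lies at 0.829 CPM between mir-409 at 46.7 and mir-369 at 52.7.

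The comparison of the tissues asked how much higher the members were in fat than in liver. In the LF group 45 members had enough counts to be tested, and 36 of them rose in eWAT over liver while 0 fell, beside 16% of all called lower (edgeR quasi-likelihood test with Benjamini-Hochberg adjustment over all 681 miRNAs tested, adjusted p under 0.05). Among all miRNAs tested 31.4% were called higher in eWAT. In HF 40 of 45 were called higher, beside 32% of all, and in HFLF 40 of 45, beside 29.4%. In both 0 were called lower, beside 17.6% and 19.2%. A member had to be counted in at least 1 group to be tested, mostly eWAT, so the counts describe members above that limit. All 45 lay above 0 in each of the 3 diet groups, beside 62.1%, 61.1% and 57.3% of all miRNAs tested, with a median log2 difference of 2.94 in LF, 4.22 in HF and 3.86 in HFLF, beside 0.60, 0.48 and 0.27 over all miRNAs tested. These sizes depend on the scaling: the log2 difference of the summed cluster was 3.15, 4.06 and 4.04 with TMM and 4.44, 5.22 and 5.16 with plain library totals, under which the medians over all miRNAs tested were 1.87, 1.66 and 1.39. With members that had no count in the liver group set to their lower bound, the medians were 2.93, 4.07 and 3.60. All 6 eWAT libraries lay above all 6 liver libraries for 31, 38 and 36 of the 45, beside 20.3%, 25.8% and 25.6% of all miRNAs tested. Without liver LF replicate 4 and HF replicate 6, 36, 40 and 41 members were called higher, with medians of 2.75, 3.95 and 3.77.

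Among the abundant members the LF difference was 3.37 ± 0.39 (SE, log2) for miR-379-5p (adjusted p = 5.2e-09 with edgeR), 2.74 ± 0.55 for miR-541-5p and 3.22 ± 0.62 for miR-411-5p. For miR-382-5p it was 3.17 ± 0.50 and for miR-369-3p 2.94 ± 0.53. The smaller differences among the highest 12 were 1.75 ± 0.60 for miR-543-3p (adjusted p = 0.016 with edgeR) and 1.85 ± 0.60 for miR-409-3p, and the largest was 3.90 ± 0.61 for miR-382-3p. All 12 passed the test in LF, the last with an adjusted p of 0.018 (edgeR) for miR-379-3p, and for all but miR-543-3p the LF libraries of the tissues did not overlap.

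The largest fitted tissue differences in LF belonged to miR-381-3p, miR-323-3p and miR-369-5p, which had no count in any of the 6 LF liver libraries. Against a floor of 3 counts over the liver group, miR-381-3p was at least 54.5-fold higher in eWAT, where its libraries held 2.18 to 4.67 CPM. For miR-323-3p the bound was at least 44.3-fold, with 1.02 to 4.43 CPM in eWAT. In HF the bound for miR-381-3p was at least 95.3-fold and that for miR-409-5p at least 155-fold. Of the 45 tested members 9 had no count in LF liver, 13 in HF liver and 9 in HFLF liver. Their bounds ran from at least 2.91-fold to at least 155-fold over the 3 groups. The floors pool the depth of all 6 libraries of a group, including LF replicate 4 and HF replicate 6, and cover counting error only. In LF replicate 4 miR-541-5p had 0 counts, against 103 to 355 in the other LF liver libraries. A 0 in that library is thus a weak limit. The bounds were not computed without LF replicate 4 and HF replicate 6.

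At the other end miR-154-3p, miR-376b-3p and miR-376a-5p differed least between the tissues in LF. miR-154-3p had lowest, median and highest values of 0, 0.563 and 7.17 CPM in liver and 0.136, 2.27 and 3.62 CPM in eWAT, with a log2 difference of 0.01 ± 1.00. Its direction turned when liver LF replicate 4 and HF replicate 6 were left out (-0.31), and leaving out 1 library at a time gave -0.32 to 0.91. The 2 highest liver libraries, LF replicates 1 and 3, held 60 and 23 of its counts, and LF eWAT replicate 4 the lowest eWAT value. miR-376b-3p (0.93 ± 1.01) and miR-376a-5p (1.02 ± 1.20) belong to a family whose hairpins are known to be edited from A to I in the seed, and both had liver libraries within the eWAT range.

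Other small RNAs differed between the tissues as well, though not all of the lists fixed as markers did. The 5 stromal and mesenchymal miRNAs fixed as markers (miR-143-3p, miR-145a-5p, miR-199a-3p, miR-199a-5p and miR-214-3p) were all counted in every group and summed to 12580 to 29225 CPM in liver and 81687 to 168639 CPM in eWAT. The 4 hepatocyte miRNAs (miR-122-5p, miR-192-5p, miR-194-5p and miR-802-5p) summed to 610355 to 988937 CPM in liver and 515 to 3597 CPM in eWAT. As scaled levels these sums are not shares of the reads, with scaling factors of 0.575 to 0.807 in liver and 1.37 to 1.68 in eWAT. The 6 striated muscle miRNAs summed to 13.8 to 66.4 CPM in liver and 321 to 2470.2 CPM in eWAT, with miR-208b-3p at 0 in all groups and miR-133b-3p at 0 in liver. The 5 leukocyte miRNAs, all counted in every group, summed to 430.4 to 878 CPM in liver and 1336 to 3996 CPM in eWAT, and the 2 endothelial miRNAs to 3031 to 9872 and 7437 to 18705 CPM. The 8 neural miRNAs summed to 17.5 to 62.8 CPM in liver and 18.2 to 96.8 CPM in eWAT. For the 3 erythroid miRNAs the sums were 970 to 2740 and 1065 to 3558 CPM. The germ cell and epididymis list had medians of 24.1 CPM in liver and 26.1 CPM in eWAT, but its highest libraries lay far apart. In eWAT they were LF replicate 1 (1836 CPM), LF replicate 4 (346) and HF replicate 6 (210). The highest liver library held 59.8 CPM. Medians were higher in liver for the epithelial list (1483 against 107 CPM) and the endocrine list (1264 against 249 CPM). The highest library was an eWAT one for both lists. For the epithelial list it was LF replicate 4 (15647 CPM, highest liver library 2671). For the endocrine list it was LF replicate 1 (2620 CPM, highest liver library 1701). The part of cell composition in the tissue difference of the cluster was not tested.

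The proximal miRNAs of the same domain, around Rtl1 and Rian, were the nearest relatives to compare with. Their list held 34 mature miRNAs, of which 18 were tested between tissues, and 14, 17 and 18 of them were called higher in eWAT in LF, HF and HFLF with the same test, beside the 31.4%, 32% and 29.4% of all miRNAs tested given above. The filter on low counts kept 5 proximal miRNAs in the fit of liver alone and 18 in that of eWAT, so most entered the tissue test through eWAT. They summed to 386 to 746 CPM in eWAT. The ratio of the distal to the proximal sum stayed between 1.77 and 2.24 in the 18 eWAT libraries, with a median of 2.02. In liver it ran from 1.67 to 10.3 with a median of 3.36, on few counts. Between diet groups 0 proximal miRNAs were called with the same test, with medians in HF against LF, HFLF against LF and HFLF against HF of 0.12, 0.12 and -0.09 over 18 in eWAT, and of -0.14, -0.06 and 0.01 over 5 in liver.

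Diet group made no called difference to any member. In eWAT 45 members were tested among 638 miRNAs, and 0 were called in HF against LF, in HFLF against LF or in HFLF against HF (edgeR, adjusted p under 0.05; 0% of all miRNAs tested in each direction of each comparison). At an unadjusted p under 0.05 the members numbered 1, 0 and 1 in these comparisons, beside 7.68%, 15.4% and 3.29% of all 638. DESeq2 and limma also called 0 members in all 3. All 3 comparisons use the same 18 libraries and those with LF share its controls.

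In HF against LF eWAT, 36 of 45 members lay above 0 and 9 below, with a median log2 difference of 0.16, beside 49.4% above 0 and a median of -0.01 over all miRNAs tested. The member with the smallest p was miR-543-3p, whose lowest, median and highest libraries were 10.5, 25.4 and 31.8 CPM in LF and 26.5, 29.98 and 38.3 CPM in HF. The groups overlapped, and the lowest LF value was that of replicate 4 (log2 difference 0.45 ± 0.21, adjusted p = 0.64 with edgeR). Next were miR-668-3p, from a median of 7.28 CPM in LF to 9.89 in HF (0.45 ± 0.27), and miR-369-5p, from 2.74 to 3.49 CPM (0.43 ± 0.27). The leading member miR-379-5p had 239, 362 and 459.7 CPM as lowest, median and highest HF libraries, a range that covered the LF range of 246 to 452.

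In HFLF against LF eWAT, 23 members lay above 0 and 22 below, with a median of 0.02, beside 45.9% above 0 and -0.04 over all. miR-299a-5p had the smallest p, with medians of 3.79 CPM in LF and 2.71 CPM in HFLF (-0.65 ± 0.34, adjusted p = 0.39 with edgeR). miR-667-3p had medians of 2.98 and 1.72 CPM (-0.72 ± 0.41), and miR-543-3p 25.4 and 30.8 CPM (0.35 ± 0.21). None of the 3 had groups that stood apart.

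In HFLF against HF eWAT, 12 members lay above 0 and 33 below, with a median of -0.15, beside 47% above 0 and -0.02 over all. miR-381-3p had lowest, median and highest values of 3.23, 4.99 and 5.99 CPM in HF and 2.31, 2.98 and 4.39 CPM in HFLF, which overlapped (-0.59 ± 0.24, adjusted p = 0.997 with edgeR). miR-487b-3p had medians of 12.8 CPM in HF and 9.08 CPM in HFLF (-0.39 ± 0.22). The value for miR-666-3p, 2.19 ± 1.23, came with HFLF replicate 1 at 2.57 CPM, where no other eWAT library passed 0.777 CPM. Leaving out 1 library at a time moved that value between 1.14 and 2.62.

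**Figure D4:**
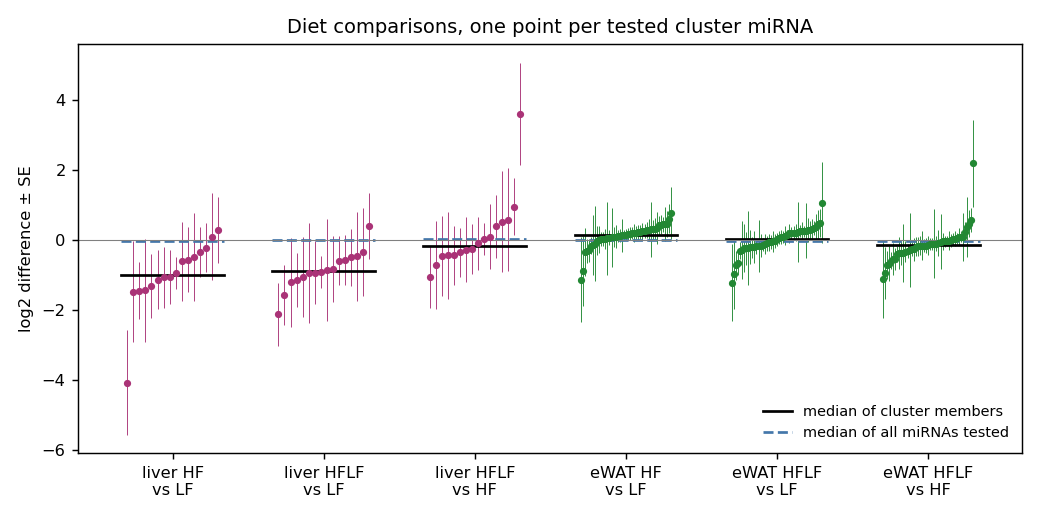
Log2 difference ± SE of every tested cluster miRNA (points, sorted within a comparison) in the 6 diet comparisons, 16 members in liver and 45 in eWAT. Solid black lines are the medians of the members and dashed lines the medians of all miRNAs tested. No point passed the test; in liver the members' medians lie at -0.99 and -0.88 against LF, and in eWAT between -0.15 and 0.16.

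The eWAT members tended to be high or low together within a library. The parts of library and group in this were not separated by a test. Of the 36 members counted in every eWAT library, the number above their own median over the 18 libraries was 28, 16, 14, 3, 18 and 11 in LF replicates 1 to 6. It was 13, 30, 22, 28, 29 and 5 in HF and 23, 24, 22, 19, 16 and 3 in HFLF. The libraries with most members low were thus LF replicate 4, HF replicate 6 and HFLF replicate 6, 1 in each group. The same count over all eWAT miRNAs was not made, so whether the pattern is particular to the cluster was not tested. By the values given above, the ratio of the distal to the proximal sum varied less between eWAT libraries than either sum. LF replicates 1 and 4, the highest and the lowest of their group in the summed cluster (1344 and 770.4 CPM), were also the libraries in which the 8 epithelial marker miRNAs summed to 11572 and 15647 CPM, against 51.8 to 227 CPM in the other 16 eWAT libraries. The part of this in the LF group's spread was not tested. Without them the median difference of HF against LF was 0.20, and 0 members were called.

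In liver 16 members were tested among 478 miRNAs, and 0 were called in any of the 3 diet comparisons (edgeR, adjusted p under 0.05; 0% of all miRNAs tested in each direction of each comparison). At an unadjusted p under 0.05 there was 1 member in each comparison, beside 3.35%, 2.93% and 1.05% of all 478, and DESeq2 and limma also called 0. In HF against LF 2 of the 16 lay above 0, with a median of -0.99, beside 47.7% above 0 and -0.01 over all. In HFLF against LF 1 of 16 lay above 0, with a median of -0.88, beside 52.3% and 0.01. In HFLF against HF 7 lay above 0, with a median of -0.17, beside 55.9% and 0.04. With that pair of libraries left out the 3 medians were -0.88, -1.07 and 0.11.

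The liver LF group was wide. The summed cluster was 252 and 239.5 CPM in LF replicates 1 and 3 and 44.0 to 112 CPM in the other 4, against 51.5 to 104 CPM in HF and 39.8 to 132 CPM in HFLF. The LF mean was 136.2 ± 88.3 CPM, that of HF 69.5 ± 19.0 and that of HFLF 74.6 ± 39.0 (SD, n = 6 each). Leaving out the pair, LF and HF averaged 155 ± 84.8 and 71.8 ± 20.3 CPM (SD, n = 5 each). The stromal list summed to 28067 and 22753 CPM in LF replicates 1 and 3, the former the highest of the group, and to 15308 to 25850 CPM in the other 4. Its part in the spread of the cluster was not tested.

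Single members showed the same overlap. miR-379-5p had lowest, median and highest values of 8.39, 22.1 and 70.1 CPM in LF liver, 9.85, 11.96 and 29.2 in HF and 6.20, 16.4 and 33.1 in HFLF. Its log2 difference from LF was -0.94 ± 0.46 in HF (adjusted p = 0.998 with edgeR) and -0.91 ± 0.47 in HFLF (adjusted p = 0.989 with edgeR). miR-376c-3p had 0, 0.945 and 5.26 CPM in LF and was counted in 1 HF library (replicate 1, 5 counts), and in HFLF it had 0, 1.29 and 3.67 CPM. It had the smallest p of the members in HF against LF (-4.07 ± 1.49, adjusted p = 0.998 with edgeR) and in HFLF against HF (3.61 ± 1.47). In LF, HF and HFLF the medians of miR-543-3p were 6.66, 2.81 and 1.16 CPM, but its groups overlapped and no difference was called (HFLF against LF -2.12 ± 0.90, adjusted p = 0.989 with edgeR). For miR-411-5p the medians were 11.2, 4.49 and 8.38 CPM (HF against LF -1.44 ± 0.82), and for miR-409-3p 9.92, 4.49 and 3.02 CPM (HFLF against LF -1.56 ± 0.86).

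Whether the HF difference itself differed between the tissues was tested as an interaction over all 36 libraries. It was called for 4 of 45 members, all with the difference from LF higher in eWAT than in liver, beside 1.32% of the 681 miRNAs tested called in that direction and 1.17% in the other. At an unadjusted p under 0.05 there were 17 members, 13 in that direction and 4 in the other, beside 13.1% of all in either direction. Of the 18 proximal miRNAs tested 2 were called in the same direction. miR-409-5p (adjusted p = 0.017 with edgeR) had counts of 25, 2, 13, 0, 0 and 8 in LF liver replicates 1 to 6 and 0 in all 6 of HF, while its 18 eWAT libraries held 3.38 to 14.5 CPM. miR-299a-3p (adjusted p = 0.036) had 24, 13, 21, 0, 0 and 9 counts in LF liver and 4 in a single HF library. miR-668-3p (adjusted p = 0.045) had 10, 8, 10, 0, 11 and 10 counts in LF liver and 4 and 3 in 2 HF libraries, and miR-376c-3p (adjusted p = 0.048) 44, 24, 1, 0, 0 and 16 in LF liver and 5 in 1 HF library. These calls thus rest on liver counts of 44 or fewer per library. Their number went to 1 with no filter on low counts and to 0 with limma, with the replicate number as a block, or without eWAT LF replicates 1 and 4. Leaving out single libraries gave 1 to 4. It was 2 without liver LF replicates 3 or 6, liver HF replicates 1 or 4, or eWAT LF replicates 2 or 6, and 1 without liver LF replicates 1 or 2, liver HF replicates 2, 3 or 6, eWAT LF replicates 1, 3 or 4, or eWAT HF replicates 2 to 6. For HFLF the interaction called 0 of 45 members (edgeR), beside 0.294% of all called higher and 1.62% lower. At an unadjusted p under 0.05 there were 10 members, 7 higher and 3 lower, beside 11.7% of all in either direction. DESeq2 called 3 members.

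The share of a hairpin's counts on each arm does not depend on scaling between libraries. Of 36 hairpins with both arms in the table, 11 had more 5p and 24 more 3p counts in eWAT. The 5p arm made up 99.8% of the counts of mir-541 and 94.5% of mir-379, and 0.493% of mir-543. Hairpins mir-382 (74.3%) and mir-411 (77.1%) had a clear minor arm, and mir-485 (40.3%) and mir-329 (36.3%) used both. The 95% Wilson interval of the share of mir-379 was 94.4% to 94.6%, for counting error only, while its 18 eWAT libraries ran from 92.1% to 96.1%.

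**Figure D5:**
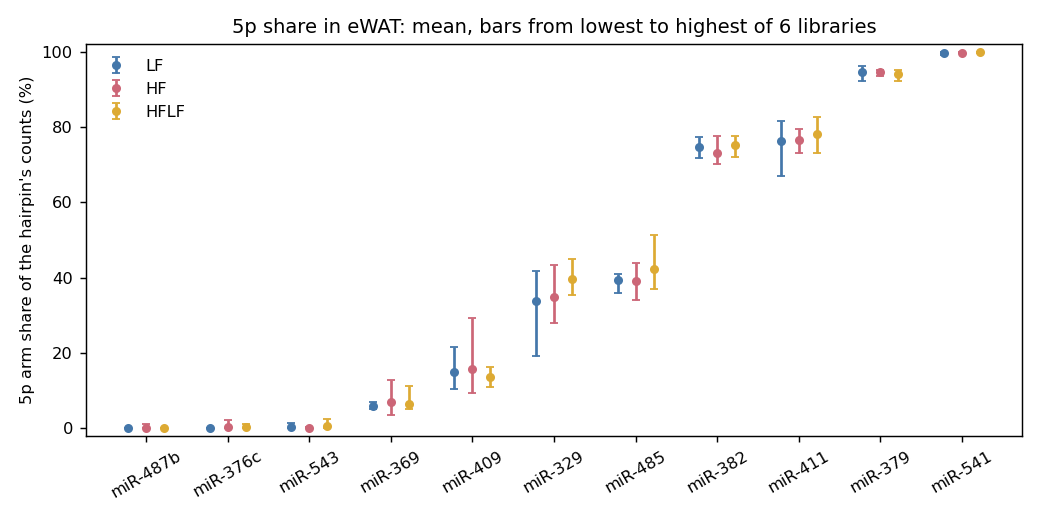
Share of a hairpin's counts on its 5p arm (%) in eWAT for the 11 hairpins with at least 100 counts in every eWAT library. Points are group means of 6 libraries and bars run from the lowest to the highest library. The shares range from group means under 1% for mir-487b, mir-376c and mir-543 to over 99% for mir-541. The bars of the 3 diet groups overlap for every hairpin.

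The 11 hairpins with at least 100 counts in every eWAT library were tested for a change of arm between the diet groups, with 33 tests in all. No share was called (exact permutation test, 2-sided, 6 against 6 libraries, smallest adjusted p = 0.88), and 0 of 33 had an unadjusted p under 0.05. In eWAT miR-487b-5p had no count in 17 libraries, miR-376c-5p in 15 and miR-543-5p in 13. For these hairpins the tested ratio mostly follows the counts of the other arm, so their tests cannot show whether arm use changed. The smallest p belonged to mir-541, whose 5p share was 99.7% ± 0.143 in HF and 99.9% ± 0.149 in HFLF (SD, n = 6 each, exact permutation p = 0.084). Its 3p arm was sparse as well: miR-541-3p had at most 26 counts in an eWAT library and 0 in 4 of the 18. The ratio tested for mir-541 therefore depends on the pseudocount in those libraries. For mir-329 the 5p share was 34.9% ± 5.61 in HF and 39.6% ± 3.70 in HFLF (SD, n = 6 each, exact permutation p = 0.11).

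Between the tissues only hairpins mir-379 and mir-409 had at least 20 counts in every LF library. The 5p share of mir-379 was 94.6% ± 1.42 in LF eWAT and 88.8% ± 7.59 in LF liver (SD, n = 6 each), with an exact permutation p = 0.28, and that of mir-409 was 14.9% ± 3.72 and 10.4% ± 10.5 (exact permutation p = 0.19). Neither difference was larger than the spread between libraries. With a pseudocount of 5 in place of 0.5, or without liver LF replicate 4, 1 of the 2 was called. Summed over all libraries of a tissue, and with no test, the 5p share was 77.1% in eWAT and 68.7% in liver for mir-411, 40.3% and 26.3% for mir-485, 46.5% and 8.49% for mir-376b, and 44.7% and 19.1% for mir-154. It lay the other way for mir-382, with 74.3% in eWAT and 77.6% in liver, and for mir-329, with 36.3% and 45.2%. Liver counts of the 5p and 3p arms were 61 and 74 for mir-329, 22 and 237 for mir-376b, and 35 and 148 for mir-154. Of the 148, LF replicate 1 held 60. The hairpins given with pooled shares were chosen after their values were seen.

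The authors' deposited log2 tables kept few of these miRNAs. Their eWAT table of 180 miRNAs holds 5 members, miR-379-5p, miR-541-5p, miR-411-5p, miR-382-5p and miR-369-3p, which are the 5 highest here, and their liver table of 171 miRNAs holds 0. In the authors' deposited table miR-379-5p ran from 7.60 to 8.54 log2 CPM over the 18 eWAT libraries.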

How the data were processed

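Small RNA libraries were made with the NEXTFLEX Small RNA-seq Kit v3, per the labels. The submitters' processing notes name cutadapt, Bowtie and the build GRCm38.p6, with no versions or settings. Raw read counts were deposited by the authors in 2118 lines for 1966 mature miRNAs, a line per mature miRNA and precursor, with CPM columns (not used), and log2 CPM values for a subset in each tissue. Here the highest line per mature miRNA was used (each member has 1 line); other lines held 13.7% to 26.7% of a column. Counts were tested with edgeR 4.0.16 (TMM, filterByExpr, robust quasi-likelihood, R 4.3.3), with adjustment over all miRNAs tested: 18 libraries of a tissue for diet, all 36 for tissue and interaction. SEs are the fold change over the root of F. Arm shares were compared by exact permutation of log2 ratios (pseudocount 0.5, 924 assignments, smallest p = 0.00216). Alternatives were DESeq2 1.42.0, limma 3.58.1, RLE factors, plain totals, no filter, summed lines, a replicate block and left-out libraries. Scripts were tested on simulated data. The members and lists were chosen with earlier results of these data known. Members named are the highest 12 in eWAT and 6 in liver, the 3 smallest p of each diet comparison, the 3 largest and smallest LF tissue differences, called interactions and shared seeds; miR-134-5p and the pooled arm shares were chosen after their values were seen.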

Additional observations from a re-analysis of the deposited data

Results flagged for a closer look

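In each group of 6 libraries, a library was picked out when its gap to the nearest other was over 0.625 of the group's range. Among 145 groups of member and library set examined, 20 held such a library. Chance alone picks out about 1 in 20 groups when the values are normally distributed. A group with counts in a single library is always picked out, so that rate cannot be applied to these groups.

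In eWAT these were miR-376c-3p in LF replicate 1 (21.9 CPM, next 14.2), miR-666-3p in HFLF replicate 1 (2.57, next 0.651), miR-411-3p in HF replicate 5 (59.5, next 43.1) and miR-409-5p in HF replicate 3 (14.5, next 7.64), all high. Low libraries were miR-382-5p in HFLF replicate 6 (37.4 CPM, next 60.8) and miR-485-3p in HF replicate 6 (11.04, next 19.95).

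The liver cases lay at few counts. In LF they were miR-299a-5p in replicate 1 (0.837 CPM), miR-667-3p in replicate 6 (1.88) and miR-376a-5p in replicate 3 (3.47). In HF they were miR-376c-3p (0.600 CPM) and miR-323-3p (1.44) in replicate 1, miR-369-5p in replicate 3 (0.942), and miR-376a-5p (0.745) and miR-299a-3p (0.372) in replicate 5. In HFLF they were miR-666-3p in replicate 1 (0.689 CPM), miR-543-3p in replicate 2 (4.85), miR-369-3p in replicate 4, which was low (0.437), and miR-667-3p (0.975), miR-381-3p (0.487) and miR-323-3p (1.71) in replicate 5. In 8 of these the other 5 libraries had no count.

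The interaction test of the HF difference from LF between tissues was called for miR-409-5p (edgeR adjusted p = 0.017), miR-299a-3p (edgeR adjusted p = 0.036), miR-668-3p (edgeR adjusted p = 0.045) and miR-376c-3p (edgeR adjusted p = 0.048). None of the 4 calls was left with limma, with the replicate block, or without eWAT LF replicates 1 and 4, and 1 member was called with no filter on low counts.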

How the results depend on the processing

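The counts of 0 members called in the 6 diet comparisons held under every alternative run, and the counts called between tissues stayed within 35 to 45, and 34 to 42 when 1 library was left out. Under plain library totals the summed tissue differences moved to 4.44, 5.22 and 5.16 (LF, HF, HFLF), in the same direction. The 4 members of the HF interaction became 1 with no filter, 2 with summed lines, and 0 with limma, with the replicate block, or without eWAT LF replicates 1 and 4 (1 to 4 leaving out 1 library); the cause was not tested. The HFLF interaction went from 0 to 3 with DESeq2 and 1 without liver LF replicate 4 and HF replicate 6 (0 to 1 leaving out 1 library). The arm test between tissues gave 1 with a pseudocount of 5 (0 to 1 leaving out 1 library). miR-154-3p in LF reversed to -0.073 with summed lines and -0.31 without liver LF replicate 4 and HF replicate 6, and ran from -0.32 to 0.91 leaving out 1 library. Same-numbered libraries correlated between -0.33 and 0.32 over all pairs of groups. For liver and eWAT of the same diet group the range was -0.10 to 0.18. These correlations cannot show whether equal numbers mean the same mouse. The block changed no other count by over 1.5 times. Liver members near the 3-count floor (0.228 to 0.650 CPM) limit what could be detected there.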
